A study of Caenorhabditis elegans with 36 samples.

Results

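The return from heat was followed in RNA polymerase II by comparing the first generation back at 15 °C (p15C-G1) with the second (p15C-G2). The comparison used 4 of the 36 chromatin immunoprecipitation sequencing (ChIP-seq) libraries of the series, the Pol II libraries of both genotypes at both generations, with 2 libraries per generation and genotype as covariate. The animals were synchronized young adults of the nematode C. elegans. One strain was N2, the wild type (WT), and the other carried hrde-1(tm1200), a mutation in the gene for HRDE-1, an Argonaute protein of germ cell nuclei. Each strain was 1 lineage of biological repeat 2, kept for 3 generations at 15 °C, 6 at 23 °C and then at 15 °C again, so that p15C-G1 grew from eggs of adults kept at 23 °C and p15C-G2 from eggs of adults kept at 15 °C. Whole animals were used, and in such samples fewer cells of a type and less Pol II per cell cannot be told apart. WT and hrde-1 stand in for replicates here, and no generation had 2 cultures of a genotype.

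The antibody recognizes RNA polymerase II whose repeated C-terminal domain is phosphorylated at serine 2, the form that travels through gene bodies during elongation. Its signal over a gene is therefore read as transcription in progress and not as mRNA already made. HRDE-1 binds small RNAs there and directs silencing of matching genes over generations. Some of its targets, which the study named NHGs for nuclear RNAi-repressed, heat-inducible genes, are switched on by heat in the mutant, and the design asks what remains of such states after the heat has ended.

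The deposited values are RPKM, read numbers divided by gene length and by the size of the library, and a change is the log2 difference of RPKM + 1, p15C-G2 minus p15C-G1. The added 1 makes changes of weak genes smaller. A gene passed the test at a limma adjusted p of 0.1 or less, and is said to have risen or fallen in that case only. It was called when it also changed at least 2-fold.

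Of 20157 genes tested, 0 rises (0%) and 147 falls (0.729%) were called. At any fold 539 genes rose (2.67%) and 2634 fell (13.1%), and 6319 genes had an unadjusted p under 0.05. No gene was 2-fold higher at p15C-G2, and the largest rise was at the cytochrome P450 gene cyp-35A2, by 1.00 on the log2 scale. The strongest fall by p-value was at pgp-1, an ABC transporter gene of the P-glycoprotein family, and the largest was at Y49F6B.6. These counts depend on how the libraries are scaled. Quantile normalization, which gives the 4 libraries the same distribution of values, called 3 rises (0.0149%) and 9 falls (0.0446%), with 31 rises (0.154%) and 81 falls (0.402%) at any fold. Centring every library on the same median called 4 rises and 22 falls, with 3940 rises and 1830 falls at any fold. Cyclic loess, chosen after seeing the data, called 3 rises and 9 falls. Leaving out 1 of the 4 libraries leaves 1 generation with a single library, and in a fit of all 12 Pol II libraries it called 939 falls without WT p15C-G1. It called 0 without WT p15C-G2, where the smallest limma adjusted p of any gene was 0.19, and 0 without the p15C-G1 or the p15C-G2 library of hrde-1, where it was 0.34 and 0.27. No gene reached the limit in those fits, so their folds are given instead. Of the 15 largest called falls all 15 stayed at least 2-fold lower without either WT library, 10 without hrde-1 p15C-G1 and 14 without hrde-1 p15C-G2. The 15 were chosen for their large change in these same libraries. That choice keeps their folds large, so they are no independent support.

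The libraries of p15C-G1 differed from the others in range. The estimated depth, in rounded numbers of reads, was 3100000 at p15C-G1 and 5660000 at p15C-G2 in WT, and 3070000 and 4690000 in hrde-1. The gene at the 10th percentile had 1.85 RPKM at p15C-G1 and 1.14 at p15C-G2 in WT, and 2.88 and 1.45 in hrde-1. The gene at the 90th percentile had 25.3 and 27.7 RPKM in WT, and 22.4 and 27.5 in hrde-1. Weak genes thus stood higher and strong genes lower at p15C-G1 in both genotypes. The ratio of the 90th to the 10th percentile was 13.7 at p15C-G1 in WT and 7.77 in hrde-1, against 24.3 and 19 at p15C-G2, 40.2 and 28.3 at 15C-G3 before the heat, and 14.9 to 26.8 in the 6 libraries of 23C. Which part of the changes goes with this difference in range was not tested.

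**Figure D1:**
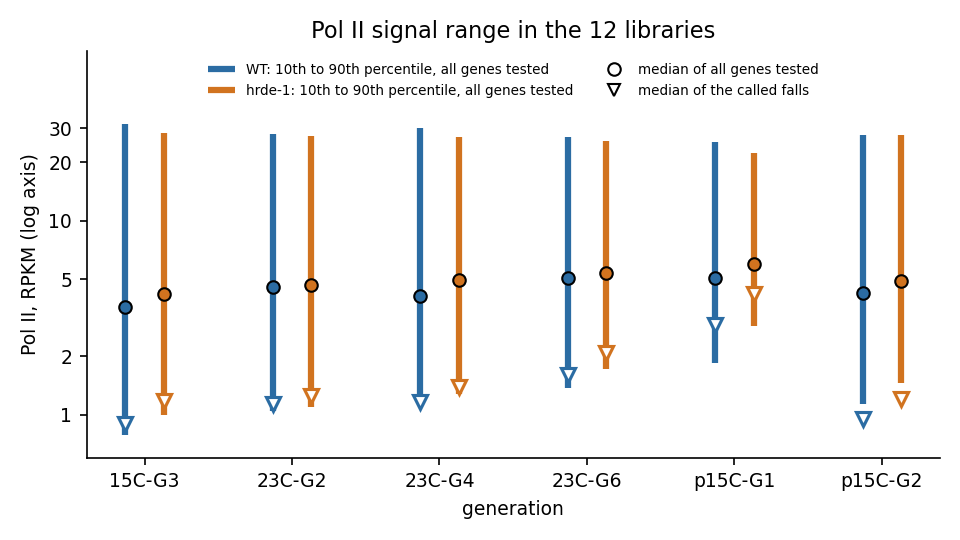
Pol II RPKM on a log axis (y) in each of the 6 generations (x), blue for WT and orange for hrde-1, 1 library each. Bars run from the 10th to the 90th percentile of the 20157 genes tested, circles are their median and triangles are the median of the 147 called falls. The bars of p15C-G1 start highest, at 1.85 and 2.88 RPKM, and the triangles stand at 2.89 and 4.19 RPKM there against 0.946 and 1.2 at p15C-G2.

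The change of a gene followed its level. In the decile of genes with the lowest mean over the 4 libraries, 1.04 to 1.92 RPKM, the median change was -0.51, and in the highest decile, 25.6 to 362 RPKM, it was 0.26. Among the 2634 falls, 2364 (89.7%) were in the 5 lowest deciles, under 5.05 RPKM. Among the 539 rises, 487 (90.4%) were in the 3 highest deciles, over 12.2 RPKM. After quantile normalization the median change was between -0.03 and 0.02 in every decile. The median change of all genes was -0.17, with -0.12 in WT and -0.17 in hrde-1, and 0.01 after quantile normalization. The changes below are to be read beside that median.

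**Figure D2:**
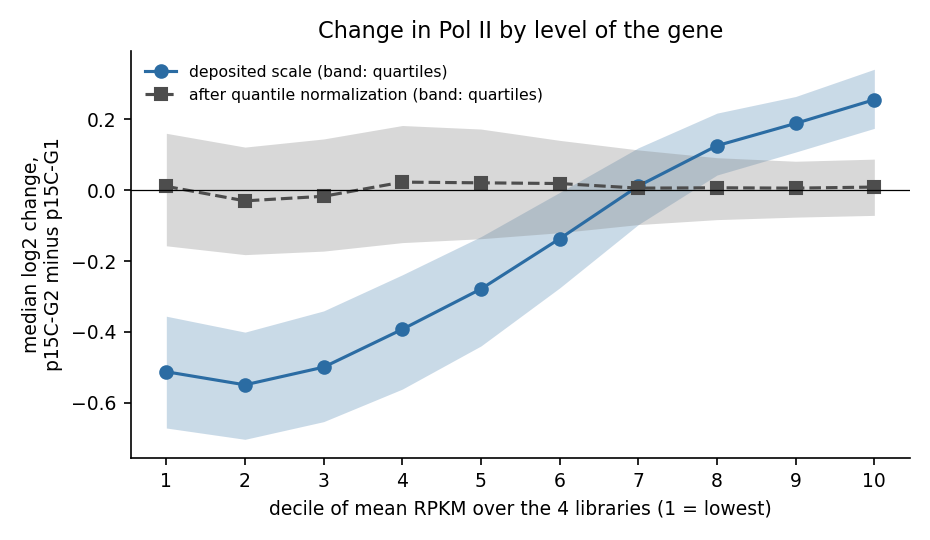
Median log2 change in Pol II, p15C-G2 minus p15C-G1 (y), in 10 deciles of the mean RPKM of a gene over the 4 libraries (x), with bands from the lower to the upper quartile. On the deposited scale (blue) the median runs from -0.51 in decile 1 to 0.26 in decile 10, and after quantile normalization (grey) it stays between -0.03 and 0.02.

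The 147 called falls were mostly weak genes. Their mean was under 5 RPKM in 141, and all 147 were lower at p15C-G2 in both genotypes. With each genotype taken by itself, 72 were at least 2-fold lower in WT and 115 in hrde-1, with some genes in both counts. Joining members less than 10 kb apart left 132 separate loci. In 122 of the 147 genes (83%) the values stood for whole numbers of reads in most libraries, against 74.8% of all genes tested. After quantile normalization all 147 were still lower at p15C-G2, with a median change of -0.63, but 16 passed the test and 5 were called. Median centring kept 22 of the calls and cyclic loess 6. Only Y49F6B.6 and pgp-1 were called under all 4 scalings.

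Of the genes called on the deposited scale and after quantile normalization, pgp-1 (IV:12591666-12599139) had the smallest p. Its level was 22.5 RPKM at p15C-G1 and 10.5 at p15C-G2 in WT, and 15.7 and 5.47 in hrde-1. Both p15C-G1 libraries were above both p15C-G2 libraries. Here and below, such separation is favoured by the choice of genes in these same libraries. Its share over all genes is not given here, so it is no further support. The log2 change was -1.2 (SE 0.13, limma adjusted p = 0.00073), and after quantile normalization the change was -1.27. Before the heat pgp-1 stood at 3.40 RPKM in WT and 3.68 in hrde-1. At 23C it had 4.31, 5.40 and 10.4 RPKM in generations 2, 4 and 6 of WT, and 5.96, 8.07 and 6.36 in hrde-1, so that p15C-G1 was the highest of the 6 generations in both genotypes. Its estimated reads, 591 and 505 in WT and 409 and 218 in hrde-1, were not whole numbers in the table. Division of multiply aligned reads among places would give such values, so its share of reads from related genes is uncertain.

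The cytochrome P450 gene cyp-13A5 (II:9798200-9800285), of a family that oxidizes small molecules, went from 9.72 to 3.38 RPKM in WT and from 11 to 4.83 in hrde-1. The groups did not overlap, which the choice of the gene favours. It fell by 1.17 (SE 0.15, limma adjusted p = 0.0037), and the quantile normalized change was -1.05. Its p15C-G1 level was above the 2.70 to 5.34 RPKM of the earlier WT generations and the 2.74 to 7.89 of those in hrde-1. The windows of its neighbours cyp-13A4 and cyp-13A6 overlap its own and share reads with it.

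The O-acyltransferase homologue oac-14 (X:10139311-10141946) had 26 and 8.95 RPKM at p15C-G1 and p15C-G2 in WT, and 18.2 and 11.4 in hrde-1. It fell by 1.04 (SE 0.16, limma adjusted p = 0.0064; quantile normalized change -1.13), by more in WT than in hrde-1, although that difference had an unadjusted p of 0.18. Unlike pgp-1 and cyp-13A5 it was also high early in the heat, with 18.6 RPKM in WT and 19.4 in hrde-1 at 23C-G2, against 9.47 and 6.16 at 15C-G3.

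Y49F6B.6 (II:3472874-3473284) had the largest change, with 3.20 and 0.501 RPKM in WT and 4.16 and 0.453 in hrde-1. It fell by 1.66 (SE 0.28, limma adjusted p = 0.016; quantile normalized change -1.21). The gene is short, and these values rest on an estimated 14 and 4 reads in WT and 18 and 3 in hrde-1. Its window overlaps those of sdz-32 and Y49F6B.12. At 15C-G3 it had 1.50 RPKM in either genotype, and at 23C 0.566 to 1.81.

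**Figure D3:**
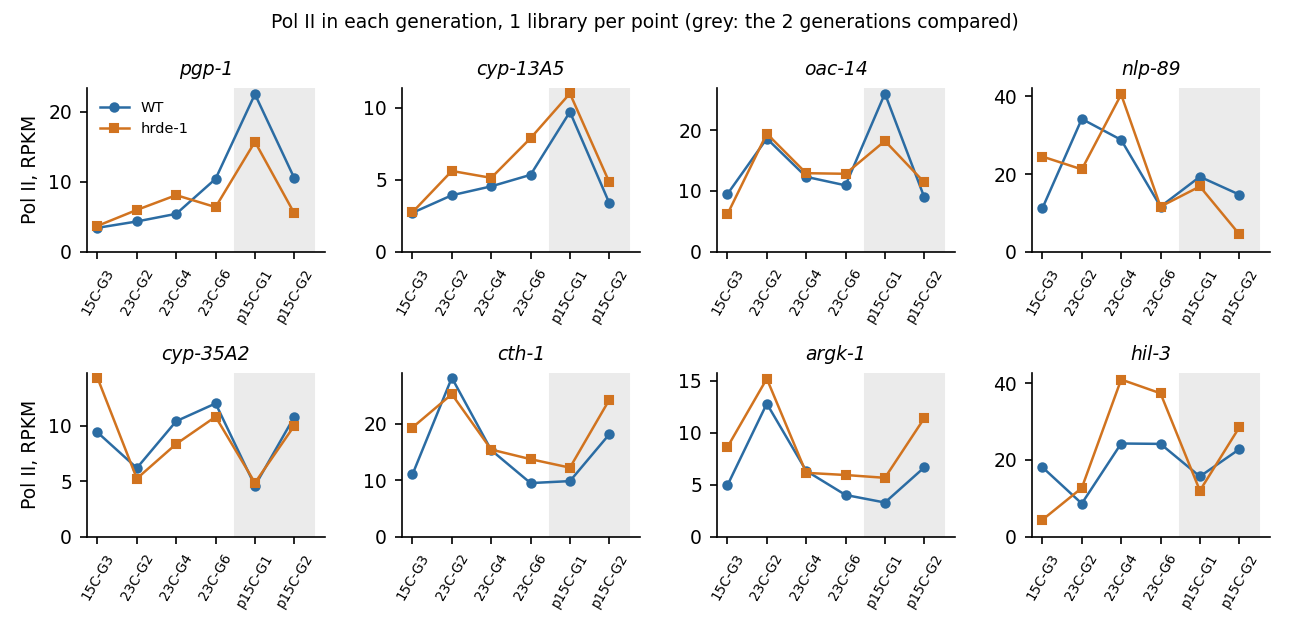
Pol II RPKM (y, each panel from 0) of 8 genes in the 6 generations sampled (x), 1 library per point, WT in blue and hrde-1 in orange, with p15C-G1 and p15C-G2 on grey. In the upper row pgp-1 falls from 22.5 to 10.5 RPKM in WT and from 15.7 to 5.47 in hrde-1, and in the lower row cyp-35A2 rises from 4.58 to 10.8 and from 4.85 to 9.99.

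The 15 called genes with the largest falls, all of weak signal, held between 1.18 and 5.33 RPKM at p15C-G1 and between 0.172 and 2.01 at p15C-G2. They rest on an estimated 5 to 31 reads per library at p15C-G1 and 1 to 17 at p15C-G2. After Y49F6B.6 came clec-103, a C-type lectin gene, a family with carbohydrate-binding domains in which many members respond to bacteria. Its level was 4.48 and 0.677 RPKM in WT and 4.06 and 1.33 in hrde-1, and it fell by 1.42 (limma adjusted p = 0.021; quantile normalized change -0.96, adjusted p = 0.074). Y1B5A.1 had 2.79 and 0.556 RPKM in WT and 5.13 and 1.17 in hrde-1, a fall of 1.39 (limma adjusted p = 0.023; quantile normalized change -0.98, adjusted p = 0.042). In these genes, too, both p15C-G1 libraries were above both p15C-G2 libraries, which their choice favours.

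Several others belong to known families. col-43, a cuticle collagen gene, had 2.85 and 0.658 RPKM in WT and 4.47 and 1.19 in hrde-1. The hedgehog-related gene grd-3, of a family linked to cuticle and molting, had 4.31 and 0.885 in WT and 5.08 and 2.01 in hrde-1. lys-9, a lysozyme gene of the kind that digests bacterial walls, had 2.92 and 0.754 in WT and 4.69 and 1.25 in hrde-1. These 3 fell by 1.27, 1.25 and 1.25 on the log2 scale (limma adjusted p = 0.029, 0.023 and 0.028), and only grd-3 passed after quantile normalization (-0.85, adjusted p = 0.089, against -0.82 and 0.13 for col-43 and -0.81 and 0.13 for lys-9). fbxa-160, an F-box gene of the kind that chooses proteins for degradation, had 2.56 and 0.901 in WT and 4.43 and 0.724 in hrde-1. skr-6, a Skp1-related gene whose family links F-box proteins to their ubiquitin ligase, had 1.18 and 0.387 in WT and 4.29 and 0.467 in hrde-1. skr-6 and F49H6.17 changed mainly in hrde-1, by -1.85 and -2 there against -0.65 and -0.50 in WT, and F49H6.17 at p15C-G2 in hrde-1 rests on an estimated 1 read. Their quantile normalized changes, with that of fbxa-160, were -0.84, -0.69 and -0.82, and none passed (adjusted p = 0.22, 0.40 and 0.16).

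The remaining 6 of the 15, F54D12.2, Y43F8C.15, Y57A10C.1, F22B3.5, T23F1.3 and F36D4.7, had changes from -1.31 at F54D12.2 to -1.2 at F36D4.7. Of the 15 genes, 6 passed the test after quantile normalization and Y49F6B.6 alone stayed called. In hrde-1 p15C-G1 was the highest of the 6 generations for 15 of 15, and in WT for 12 of 15. Over the 147 called falls it was the highest in both genotypes for 122 (83%), a share that the choice of the genes raises, and over all genes tested for 4724 (23.4%). The median of the 147 at p15C-G2, 0.946 RPKM in WT and 1.2 in hrde-1, was near that at 15C-G3, 0.896 and 1.18. At 23C it was 1.14, 1.16 and 1.6 in WT and 1.25, 1.39 and 2.07 in hrde-1 for generations 2, 4 and 6.

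Falls of small p that were chosen after their values were seen had more reads behind them. srlf-3 went from 5.44 to 2.02 RPKM in WT and from 7.45 to 2.43 in hrde-1. ssq-4, of a sperm-specific gene family, went from 9.28 to 3.44 in WT and from 8.87 to 4.85 in hrde-1, and had also stood at 14 and 10.6 RPKM at 23C-G2. ttr-26, a transthyretin-related gene, went from 9.12 to 3.57 in WT and from 15.3 to 8.66 in hrde-1. They fell by 1.2, 0.98 and 0.95 (limma adjusted p = 0.0081, 0.014 and 0.0068), and all 3 passed after quantile normalization (adjusted p = 0.02, 0.011 and 0.0018).

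nlp-89, a neuropeptide-like gene (IV:4109058-4110464), was also among the called falls, with a profile that it shares with other loci. It had 19.3 and 14.7 RPKM in WT and 16.8 and 4.50 in hrde-1, a fall of 1.03 (SE 0.2, limma adjusted p = 0.026). The change was -1.7 in hrde-1 and -0.37 in WT, a difference with an unadjusted p of 0.283. Across the 12 Pol II libraries 7 further genes followed it at r of 0.98 or more on the log2 scale, and none of the 7 had whole reads. They lie on 5 chromosomes and include T27A1.1 (r = 0.994), dbd-18 (0.996), C55C3.8 (0.994), T19D7.5 (0.996), C25B8.8 (0.997), nas-18 (0.994) and Y82E9BL.2 (0.988). T27A1.1 had 354 and 310 RPKM in WT and 306 and 67.5 in hrde-1, the largest change in hrde-1 of any gene tested, and its change over both genotypes, -1.18, just missed the test. In input, which holds no antibody, T27A1.1 had 1020 and 594 RPKM in WT and 68.9 and 122 in hrde-1, and nlp-89 57.6 and 32.8 in WT and 9.21 and 12.8 in hrde-1. The Pol II signal at these loci was thus below that of input in WT, and which of the copies the reads come from is uncertain. Of the 9 falls called after quantile normalization, 5 were of this group: nlp-89, T27A1.1, dbd-18, C55C3.8 and T19D7.5. The other 4 were pgp-1, cyp-13A5, oac-14 and Y49F6B.6.

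No rise reached 2-fold, and the rises described here were chosen after their values were seen, as the 12 of smallest p. cyp-35A2 (V:7362298-7364186), a cytochrome P450 gene known for its induction by foreign compounds, had 4.58 RPKM at p15C-G1 and 10.8 at p15C-G2 in WT, and 4.85 and 9.99 in hrde-1. Both p15C-G2 libraries were above both p15C-G1 libraries, which the choice of the gene favours. It rose by 1.00 (SE 0.15, limma adjusted p = 0.0064), and was called after quantile normalization at 1.15. At 15C-G3 it had 9.39 RPKM in WT and 14.3 in hrde-1, at 23C-G2 6.18 and 5.23, and at 23C-G6 12 and 10.8, so p15C-G1 was the lowest of the 6 generations in both. The window of its neighbour cyp-35A1 overlaps its own.

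cth-1 and argk-1 are neighbours on chromosome V, 1149 bp apart. cth-1 (V:16100628-16102717), a gene for cystathionine gamma-lyase, which makes cysteine, went from 9.82 to 18.1 RPKM in WT and from 12.2 to 24.2 in hrde-1. argk-1 (V:16103867-16105920), a gene for arginine kinase, which buffers cellular energy, went from 3.28 to 6.66 in WT and from 5.66 to 11.4 in hrde-1. They rose by 0.88 (SE 0.13, limma adjusted p = 0.0064) and 0.87 (SE 0.15, limma adjusted p = 0.021), and by 0.74 and 1.04 after quantile normalization, where argk-1 was called. For either gene both p15C-G2 libraries were above both p15C-G1 libraries, which their choice favours. Both had been high early in the heat, with 28.1 and 25.2 RPKM for cth-1 and 12.8 and 15.2 for argk-1 at 23C-G2 of WT and hrde-1. The chemoreceptor gene str-7, which ends 1120 bp from cth-1, also rose, from 4.83 to 7.46 RPKM in WT and from 5.78 to 10.3 in hrde-1 (0.64, limma adjusted p = 0.043; quantile normalized 0.78, adjusted p = 0.019). The windows of the 3 genes do not overlap, so they do not share reads.

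hil-3 (X:8159097-8160027), a linker histone gene, went from 15.7 to 22.8 RPKM in WT and from 12 to 28.5 in hrde-1, a rise of 0.85 (SE 0.15, limma adjusted p = 0.021; quantile normalized 0.70). Its span in hrde-1 was wider before the recovery, with 4.39 RPKM at 15C-G3 and 41 at 23C-G4. rog-1, an adaptor gene of Ras signalling in the germ line, went from 6.32 to 10.8 in WT and from 6.81 to 11.1 in hrde-1. let-49, a Mediator subunit gene, went from 12.4 to 18.6 in WT and from 13 to 21.1 in hrde-1. elb-1, which encodes elongin B, went from 15.4 to 27.6 in WT and from 19.2 to 26.6 in hrde-1. They rose by 0.66, 0.60 and 0.63 (limma adjusted p = 0.035, 0.035 and 0.036), and of these only rog-1 passed after quantile normalization (adjusted p = 0.019). The other 5 of the 12, K03H4.2, C01G8.1, K08F4.3, scbp-2 and Y48G1A.2, rose by 0.67 at scbp-2 to 0.75 at K03H4.2 and passed after quantile normalization too. Of the 539 rises, p15C-G1 was the lowest of the 6 generations in both genotypes for 229 (42.5%), against 1610 (7.99%) of all genes tested, a share that their choice raises.

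The genes that passed after quantile normalization, a set chosen after seeing the data, were 81 falls and 31 rises. Of the falls 54 had also fallen on the deposited scale, and of the rises 23 had also risen. Strong genes were more frequent among these falls, with 27 of the 81 in the highest decile of level. Some were picked for description by their known roles. ugt-44, a UDP-glucuronosyltransferase gene, had 30.8 and 22.3 RPKM in WT and 30.4 and 21.5 in hrde-1, and dgat-2, whose product makes triglyceride, had 32.5 and 24.1 in WT and 39.6 and 38 in hrde-1. stdh-1, a steroid dehydrogenase gene, had 28.5 and 24.2 in WT and 35.6 and 25.8 in hrde-1. Their quantile normalized changes were -0.68, -0.48 and -0.57 (adjusted p = 0.002, 0.026 and 0.014), whereas on the deposited scale dgat-2 and stdh-1 did not pass (-0.24 and -0.34). The stress regulator xbp-1 had 102 and 86.4 in WT and 103 and 116 in hrde-1. Its quantile normalized change was -0.40 against -0.03 on the deposited scale and 0.14 with median centring, so its direction depends on the scaling. A neighbouring pair of UDP-glucuronosyltransferase genes, less than 10 kb apart, differed in direction. ugt-8 rose from 4.49 to 6.43 RPKM in WT and from 3.99 to 8.54 in hrde-1, and ugt-13 fell from 52.9 to 47.1 and from 46 to 24.8 (0.68 and -0.52, limma adjusted p = 0.047 and 0.076). ugt-13 was not of whole reads and had 124 and 76.5 RPKM in the WT input.

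The change in hrde-1 was compared with that in WT in the fit of 12 libraries. There 0 genes (0%) were called, at any fold 0 passed, and 262 had an unadjusted p under 0.05. With 1 library per genotype and generation, this test is weak, and the smallest adjusted p was 1. Within WT alone 0 genes were called and 710 had an unadjusted p under 0.05, and within hrde-1 alone 0 and 2129. Across the 20157 genes the changes of WT and hrde-1 correlated at r = 0.527, and 76.1% of genes had the same direction. After quantile normalization r was 0.092 and 53.3% had the same direction. The spread of the change was wider in hrde-1, with an SD across genes of 0.47 against 0.35 in WT. Genes are not independent replicates, and no p is given for these values.

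**Figure D4:**
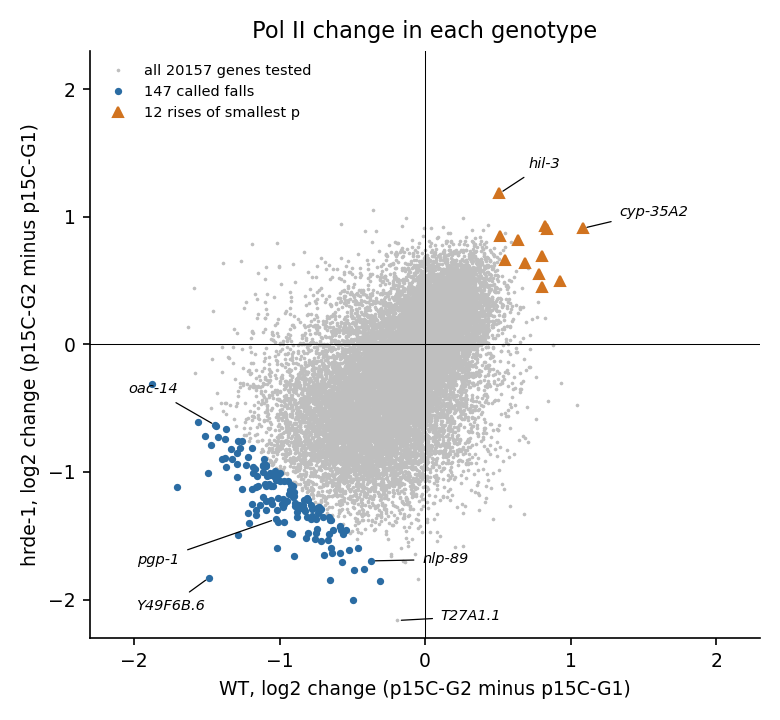
Log2 change in Pol II from p15C-G1 to p15C-G2 in WT (x) against that in hrde-1 (y). Each point is 1 of the 20157 genes tested, with the 147 called falls in blue and the 12 rises of smallest p in orange, and across all genes r = 0.527. pgp-1 and Y49F6B.6 lie low on both axes, while nlp-89 and T27A1.1 lie low in hrde-1, with changes of -0.37 and -0.19 in WT.

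The hrde-1 gene (III:4172307-4176132), measured over its whole length, had 134 and 151 RPKM at p15C-G1 and p15C-G2 in WT and 83.8 and 105 in the mutant, lower in the mutant at both generations. Its change was 0.25 (limma adjusted p = 0.47) and -0.13 after quantile normalization, so its direction depends on the scaling. hsp-16.48, a small heat shock protein gene induced by heat, had 15.3 and 16.1 RPKM in WT and 8.56 and 4.73 in hrde-1, and was not called (-0.34, adjusted p = 0.16). It shares reads with its copy hsp-16.49. The WT level was near the 13.6 RPKM of 15C-G3 and below the 22.5 to 39.7 of 23C at both recovery generations. fat-7, whose product desaturates stearoyl-CoA, had 22.2 and 18.9 RPKM in WT and 12.4 and 11.3 in hrde-1 (-0.17, limma adjusted p = 0.32, or 0.00 with median centring). Its WT level at p15C-G1 was already near the 20.3 RPKM of 15C-G3, whereas in hrde-1 it was 22.8 RPKM at 15C-G3.

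The NHGs are the targets on which the study centres. The study picked them by mRNA in this same shift, and a direction seen here is therefore no independent evidence. Of the 39 high-stringent NHGs 0 were called, 0 rose and 5 fell (12.8%, beside 13.1% of all genes). Their median change was -0.30, with -0.11 in WT and -0.32 in hrde-1, beside -0.17 for all genes, and -0.14 after quantile normalization. Those that fell were ZK262.9, ZK262.8, ins-31, F59B2.12 and sqt-1, and none passed after quantile normalization. ZK262.9 (V:18440543-18441305), which lies beside the long terminal repeat (LTR) element CER8, had 83.6 RPKM at p15C-G1 and 36.4 at p15C-G2 in hrde-1, and 2.20 and 1.50 in WT. It fell by 0.77 (SE 0.16, limma adjusted p = 0.035; quantile normalized change -0.79, adjusted p = 0.11). The change in hrde-1 minus that in WT was -0.83 (unadjusted p = 0.0381, limma adjusted p = 1). Its neighbour ZK262.8 had 45.2 and 22.7 RPKM in hrde-1 and 3.61 and 3.30 in WT (limma adjusted p = 0.067). The 17 NHGs near an LTR element had a median change of -0.34 (0 rises, 2 falls), and of -0.31 after quantile normalization. It was -0.07 in WT and -0.48 in hrde-1. These values are to be read beside genes of like level as well. The median level was 7.65 RPKM for the 39 NHGs and 17.9 for the 17. In deciles 6 and 7 of level, which meet at 7.66 RPKM, 190 of 2015 and 55 of 2016 genes fell, with median changes of -0.14 and 0.01. In decile 9, 17.4 to 25.6 RPKM, 6 of 2016 fell and the median change was 0.19.

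The 6 cumulative NHGs, whose mRNA built up over the heat generations, had 0 rises and 0 falls. F58H7.5, beside the element CER3, had 54.3 and 29.3 RPKM in hrde-1 and 3.37 and 4.08 in WT (-0.33, limma adjusted p = 0.21), and it was 6.49 in hrde-1 at 15C-G3. ZC15.3 had 33.9 and 26.5 in hrde-1 and 2.29 and 2.32 in WT. ZC15.10 had 34 and 36.7 in hrde-1 and 3.33 and 4.33 in WT, the only one of the 6 with a positive change (0.20), although ZC15.3 turned to 0.01 with median centring and F41G4.7 to 0.02 with cyclic loess. F41G4.7 had 7.24 and 4.98, C18D4.6 9.15 and 7.15, and F40D4.13 5.06 and 2.35 in hrde-1. At 15C-G3 their hrde-1 level was 6.39 RPKM for ZC15.3, 5.26 for ZC15.10, 2.34 for F41G4.7, 3.71 for C18D4.6 and 1.84 for F40D4.13, below that of p15C-G2 for all 6. Over all genes tested the median difference between these 2 hrde-1 libraries was 0.11 on the log2 scale, and 63.3% of genes were higher at p15C-G2. The difference was 2.59 for ZC15.10, 2.02 for F58H7.5, 1.90 for ZC15.3, 0.84 for F41G4.7, 0.79 for C18D4.6 and 0.24 for F40D4.13. In this order, 0%, 0.0298%, 0.0645%, 3.16%, 3.95% and 35.2% of all genes tested had a larger difference. Each generation is 1 library here, so no error can be given. Of 17 nuclear RNAi and H3K9 methylation factors measured mut-16, needed for amplification of small RNAs, rose (25.1 to 31.1 RPKM in WT, 19.9 to 26.7 in hrde-1, 0.35, limma adjusted p = 0.096; quantile normalized 0.15, adjusted p = 0.78), and the list had a median of 0.19, or 0.04 after quantile normalization.

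Gene lists of the germ line, with median levels of 18.4 to 40 RPKM, had positive median changes that quantile normalization reduced. At such levels rises were more frequent than among all genes. In deciles 9 and 10 of level, 174 and 183 of 2016 genes each rose. Of 20 oocyte and eggshell genes 6 rose (30%, beside 2.67% of all genes) and 0 fell, with a median change of 0.41 and 0.13 after quantile normalization. pos-1, an RNA-binding regulator of the early embryo, had 60.8 and 84.9 RPKM in WT and 52.3 and 88.9 in hrde-1, and puf-5, a Pumilio-family repressor in oocytes, 59.9 and 76.1 in WT and 49.1 and 81.5 in hrde-1. Both rose (0.61 and 0.53, limma adjusted p = 0.067 and 0.087; quantile normalized 0.32 and 0.26), as did egg-2 and lin-41. Of 18 meiosis genes 6 rose (33.3%) and 0 fell (median 0.24, quantile normalized 0.07). Among them was him-3, a protein of the meiotic chromosome axis, with 33.1 and 39.9 RPKM in WT and 19.8 and 40.3 in hrde-1 (0.63, limma adjusted p = 0.049; quantile normalized 0.41). htp-1 and htp-2 of the axis, syp-1 of the synaptonemal complex and him-8 and zim-3 of the pairing centres were the others, zim-3 at the limit of the test (limma adjusted p = 0.1). Of 16 germ line genes daz-1 rose (6.25%, median 0.34, quantile normalized 0.08). None of the oocyte, meiosis or germ line genes passed after quantile normalization.

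Genes for basic cell functions, also strong, were 75 ribosomal proteins, 33 proteasome subunits and 43 genes of mitochondrial respiration. Their medians were 0.47, 0.31 and 0.25, and 0.11, 0.06 and 0.05 after quantile normalization. They had 1 (1.33%), 4 (12.1%) and 4 (9.3%) rises and 0 falls in each list. In deciles 9 and 10 of level, 174 and 183 of 2016 genes each rose. The list of 70 his genes, which encode core histones and the linker histone his-24, had 12 rises (17.1%) and 0 falls. Its median was 0.30, from -0.01 in WT and 0.65 in hrde-1, and -0.00 after quantile normalization, so its direction was not kept. his-24 had 29.9 and 39.7 RPKM in WT and 25.5 and 48.5 in hrde-1 (0.65, limma adjusted p = 0.044), and was the only one of the list to pass after quantile normalization (adjusted p = 0.096). Many his genes are near-identical copies, so which of them changed is uncertain. The 7 yolk genes had 0 rises and 0 falls, with a median of 0.29 that became -0.02 after quantile normalization.

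Lists of weak genes had negative median changes. Their shares are to be read beside genes of like level as well. From decile 1 to decile 6 of level, 313, 546, 602, 510, 393 and 190 genes fell, of 2015 or 2016 in each. Called falls were 0.729% of all genes, and numbered 35, 43, 44, 12, 7 and 1 in these deciles. Of 80 sperm genes 35 fell (43.8%, beside 13.1% of all genes) and 0 rose, with a median change of -0.49, from -0.50 in WT and -0.36 in hrde-1. The median level of the list was 4.68 RPKM at p15C-G1 and 2.78 at p15C-G2 in WT, and 6.47 and 4.22 in hrde-1. spe-55 had 3.52 and 1.42 RPKM in WT and 4.75 and 1.71 in hrde-1 (a fall of 1.00, limma adjusted p = 0.039), and sss-1 had 5.78 and 2.77 in WT and 7.05 and 2.65 in hrde-1 (a fall of 0.99, limma adjusted p = 0.023). After quantile normalization the median of the list was -0.16 and sss-1 was the only one to pass. In hermaphrodites sperm are made before oocytes. Whether the staging of the cultures differed was not tested.

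Of 175 cuticle collagen genes 4 were called, beside 0.729% of all genes, and 49 fell in all (28%, beside 13.1% of all genes). The list had 0 rises and a median of -0.31, or -0.09 after quantile normalization. Besides col-43, the called ones were col-55, col-88 and col-165, with falls of 1.14, 1.1 and 1.06. Of 94 molting cycle genes grd-3 and grl-16 were called and 14 fell (14.9%, beside 13.1% of all genes). Their median change was -0.29, or -0.01 after quantile normalization. In decile 4 of level, which holds their median level of 3.48 RPKM, 510 of 2016 genes fell. Of 45 zygotic embryonic genes 3 fell (6.67%), with tbx-38, a T-box factor of the embryo, called at 3.30 and 1.13 RPKM in WT and 4.56 and 1.74 in hrde-1 (quantile normalized change -0.56, adjusted p = 0.40). The median of the list was -0.27, but 0.07 after quantile normalization.

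The chemoreceptor and C-type lectin families are large. Of 260 C-type lectin genes 8 were called and 77 fell (29.6%), with 1 rise. Of 1198 chemoreceptor genes 20 were called and 300 fell (25%), with 3 rises. Over all genes 0.729% were called falls and 13.1% fell. The medians of these families were -0.50 and -0.52, and -0.06 and -0.03 after quantile normalization. Such genes act in single neurons or in response to bacteria, and their median level was 2.43 and 1.97 RPKM. In the deciles that hold these levels, 3 and 2, 602 of 2015 and 546 of 2016 genes fell, and 44 and 43 were called. The shares of falls in both families were thus near those of genes of like level. Among 96 lysozyme and infection response genes lys-9, fipr-2 and spp-12 were called and 18 fell (18.8%; median -0.34, quantile normalized -0.06). Among 185 genes of the cytochrome P450, UGT and GST families, which handle foreign compounds, cyp-13A5, gst-2 and cyp-33C1 were called. Of the 185, 30 fell (16.2%) and 4 rose (2.16%), beside 13.1% and 2.67% of all genes. In decile 4 of level, which holds their median level of 3.26 RPKM, 510 of 2016 genes fell and 0 rose. The median of this list, -0.33, became 0.03 after quantile normalization, where 2 rose (cyp-35A2 and ugt-8) and 3 fell.

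**Figure D5:**
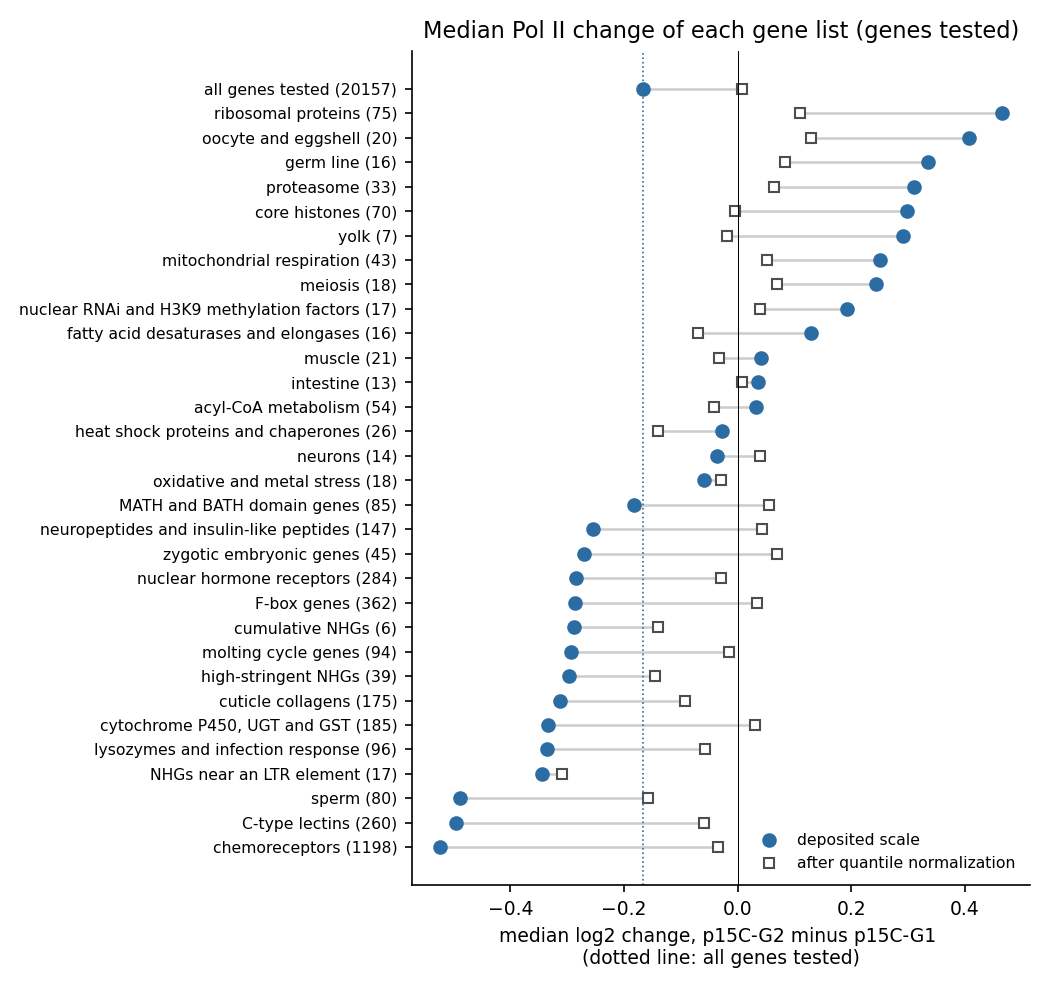
Median log2 change in Pol II, p15C-G2 minus p15C-G1 (x), of each of 31 gene lists with the number of genes tested in brackets (y), on the deposited scale (filled circles) and after quantile normalization (open squares). On the deposited scale the medians run from -0.52 for chemoreceptors to 0.47 for ribosomal proteins, and after quantile normalization the signs turn for histones, yolk, fatty acid and acyl-CoA enzymes, muscle, neurons, zygotic genes, P450 enzymes, F-box, MATH and neuropeptide genes.

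The remaining lists had few members that passed or shares of falls from 10.6% to 18.4%, beside 13.1% of all genes. The lists with such shares had median levels of 3.37 to 4.27 RPKM. In deciles 4 and 5, which hold these levels, 510 and 393 of 2016 genes each fell. F-box genes (362, median -0.29, 2 rises, 59 falls or 16.3%), nuclear hormone receptors (284, -0.28, 1 rise, 46 falls or 16.2%), neuropeptides and insulin-like peptides (147, -0.25, 0 rises, 27 falls or 18.4%) and MATH and BATH domain genes (85, -0.18, 1 rise, 9 falls or 10.6%) had quantile normalized medians between -0.03 and 0.06, with a change of sign in all but the receptors. Heat shock proteins and chaperones (26) had a median of -0.03 with 0 rises and 1 fall, hsp-16.2 at 2.53 and 1.39 RPKM in WT and 2.77 and 0.418 in hrde-1 (limma adjusted p = 0.064), and a median of 0.15 with median centring but -0.14 after quantile normalization. Among 16 fatty acid desaturases and elongases (median 0.13, but -0.07 after quantile normalization) elo-2 and fat-3 rose (0.45 and 0.35, quantile normalized 0.27 and 0.21) and elo-7 fell, from 10.1 to 6.55 RPKM in WT and from 10.9 to 5.71 in hrde-1 (0.69, limma adjusted p = 0.034), and elo-7 fell after quantile normalization as well (adjusted p = 0.05). Acyl-CoA metabolism (54, median 0.03, 1 rise, 4 falls) and oxidative and metal stress (18, -0.06, 0 rises, 2 falls) had medians of -0.04 and -0.03 after quantile normalization, and the stress list 0.11 with median centring. Markers of intestine (13, 0.04, 1 fall), muscle (21, 0.04, 1 fall) and neurons (14, -0.04, 0 falls) had 0 rises. Their quantile normalized medians were 0.01, -0.03 and 0.04, so that the sign turned for muscle and neurons.

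By chromosome the median change was 0.03 on I and 0.05 on III, and -0.14 on II, -0.14 on IV, -0.26 on X and -0.34 on V. The median level of a gene was 11.2 and 11.7 RPKM on I and III, and 3.05 on V. Of the 147 called falls 56 were on V (1.11% of its genes tested) and 6 on III (0.225%). After quantile normalization the median change lay between -0.01 and 0.04 on every chromosome.

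The same contrast in the other libraries of these cultures called 0 genes (0%) in H3K9me3, the histone mark of silenced chromatin, with limma (1846 at an unadjusted p under 0.05, smallest adjusted p 0.12), and 0 genes (0%) in input (342 at an unadjusted p under 0.05). The median H3K9me3 change of the 147 called falls was 0.03, with 59 of them lower at p15C-G2, and their median input change was 0.07, with 61 lower. Input held only an estimated 260000 to 1310000 reads per library and is a coarse background. Across genes the Pol II change correlated with the H3K9me3 change at r = -0.177.

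The change on recovery was set beside that on heating, which shares no library with it. The heat change was the mean log2 value of the 6 libraries of 23C minus that of both 15C-G3 libraries. Across genes the recovery change and the heat change correlated at r = -0.451, and at -0.066 after quantile normalization of all 12 libraries. Of the 147 called falls 132 (89.8%) were higher at 23C than at 15C-G3, with a median heat change of 0.29. This is near the share of all genes in the 3 lowest deciles of level, 88.8% with a median of 0.26, whereas over all genes it was 65.1% with 0.13. The labels give a shorter growth time for 23C than for 15C, so growth time and heat cannot be told apart in the heat change. Both recovery generations have the same stated growth time, and whether their staging differed was not tested.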

How the data were processed

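ChIP-seq libraries of repeat 2 were made by the study from young adults. The authors aligned single-end reads to WS190 with Bowtie 0.12.7, as the submitters' processing notes name it, and deposited RPKM per gene without subtraction of input. With 999 bp added to the length of a gene the values step in whole reads (tolerance 0.05 reads) for most genes, which gave the depth. The reads estimated from these depths bear on counting error only, and the depths did not enter the main test. Of 20911 entries, 744 further entries of a gene were dropped and its first was kept, leaving 20167 genes. RefSeq (WBcel235) supplied names for 19562. Coordinates are those of WS190, 1-based. A filter at 1 RPKM on the mean of the 4 libraries removed 10 genes.

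limma 3.58.1 in R 4.3.3 was fitted to log2(RPKM + 1) with a mean-variance trend, genotype as covariate and Benjamini-Hochberg adjustment over all genes. It leaves 1 residual degree of freedom, with 17.3 borrowed across genes. P-values measure the change of a gene against the difference in change between the 2 lineages, drawn mostly from other genes. They do not measure a spread between independent cultures. An exact permutation test of 2 against 2 libraries cannot go below 0.333. The difference between genotypes used all 12 Pol II libraries (4 residual degrees of freedom, from the generations of 23C). The fits were tested on simulated data. These had no difference in range between libraries, so they cannot show how the fits behave under the difference seen here.

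The comparison, members and 31 lists were chosen with earlier results of these data known. Named were the 15 largest called changes per direction with the same sign in both genotypes, hrde-1, hsp-16.48, fat-7, the 6 cumulative NHGs and up to 4 members of a list with the largest change. Where fewer than 15 were called, genes of smallest p that changed at least 2-fold were to fill up, and 0 rises qualified. Others were chosen after their values were seen. Alternatives were other pseudocounts, filters, scalings, input subtraction, fits and left-out libraries. Promoter motifs were not analysed here.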

Additional observations from a re-analysis of the deposited data

How the results depend on the processing

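The main counts were 147 falls and 0 rises called, and 2634 falls and 539 rises at any fold. Called falls numbered 1043 with a pseudocount of 0.25, 0 with a pseudocount of 4, 0 with a mean of at least 5 RPKM, 22 with median centring, 9 with quantile normalization, 8 with input subtracted, 0 with no genotype covariate and 9 with cyclic loess. Called rises numbered 1 with a pseudocount of 0.25, 4 with median centring, 3 with quantile normalization, 6 with input subtracted and 3 with cyclic loess. Falls at any fold numbered 1752 with a pseudocount of 4, 0 with a mean of at least 5 RPKM, 81 with quantile normalization, 8 with input subtracted, 0 with no genotype covariate, 1729 with all 12 libraries and 40 with cyclic loess. Rises at any fold numbered 342 with a pseudocount of 0.25, 0 with a mean of at least 5 RPKM, 3940 with median centring, 31 with quantile normalization, 107 without a trend, 12 with input subtracted, 0 with no genotype covariate and 12 with cyclic loess. With a mean of at least 5 RPKM, 10130 genes were tested, 7.26 degrees of freedom were borrowed in place of 17.3 and the smallest adjusted p was 0.12. With input subtracted 7462 genes were tested. Leaving out 1 library, in the fit of 12, gave 0 to 939 falls and 0 to 1 rises called, and 0 to 2646 falls and 0 to 678 rises at any fold, in each case the highest without WT p15C-G1 and 0 without any other, where the smallest adjusted p was 0.19 or more.

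Input subtraction called 4 rises in H3K9me3, and 32 lower and 30 higher changes in hrde-1 than in WT, all from 0. The counts of 147 and 2634 falls already come from a comparison within each lineage, through the genotype covariate, and the 0 falls without that covariate from the unpaired fit. By replicate number no paired analysis was possible because the number is 2 in every library. Of the 15 largest falls 14 were no longer called with quantile normalization or cyclic loess and 15 of 15 with a pseudocount of 4 or no genotype covariate. One read is 0.0589 to 0.109 RPKM in a 2 kb gene of these 4 libraries.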
